A study of Mus musculus with 4 samples.

Results

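The integrated stress response genes were taken by symbol from the count tables, and numbered 10 of the 23420 symbols counted. They were the transcription factors *Atf4*, *Atf5*, *Ddit3* (CHOP) and *Cebpb*, the effector and feedback genes *Trib3*, *Chac1*, *Sesn2* and *Ddit4*, and the amino acid genes *Asns* and *Slc3a2*. All 10 were counted in every sample and all 10 were among the 16232 genes tested. RNA-seq was performed on prefrontal cortex (PFC) of C57BL6/J mice, from total cell lysates, with 2 control samples (GFP-AAV9 injected) and 2 *Ash1L* shRNA samples (shRNA_ASH1L-AAV9 injected). The series description gives an age of 6 to 8 weeks and names 3 shRNA and 2 control mice, while the methods state injection at 5 weeks and tissue of 3 mice pooled per sample. By the methods, controls received an AAV with a scrambled shRNA, and 1 *Ash1L* shRNA was driven by a U6 promoter, which is active in any infected cell type. Punches were chosen by GFP fluorescence, so that infected and uninfected cells entered together.

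The integrated stress response slows protein synthesis in a stressed cell. Kinases that sense amino acid shortage, unfolded protein in the endoplasmic reticulum, double-stranded RNA or heme shortage phosphorylate the initiation factor eIF2 on its alpha subunit, which inhibits the exchange factor eIF2B. Most translation then falls, while that of the *Atf4* and *Atf5* mRNAs, which carry upstream reading frames, increases. ATF4 protein, paired with C/EBP factors, activates genes of amino acid supply and of feedback, and in prolonged stress CHOP is linked to cell death. Several of these genes also answer to other signals, among them p53 for *Sesn2*, glucocorticoids and hypoxia for *Ddit4*, and cytokines for *Cebpb*. In RNA-seq the amounts of mRNA are seen, and neither phosphorylation nor translation.

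The promoters of these genes are shown first, since ATF4 with a C/EBP partner binds a composite C/EBP-ATF response element (CARE). The letters TGATGNAAN were searched on both strands of the RefSeq promoter windows (GRCm38.p6, 250 bases before to 50 after each start site). A match was found in 3 of the 10 genes, *Chac1*, *Asns* and *Trib3*, against 4.5% of the 27025 genes with a promoter window. These 3 genes were all higher in *Ash1L* shRNA samples. *Atf4* and the other 6 genes had no match in their windows, and of these *Atf4*, *Cebpb* and *Atf5* were also above both controls. The window of *Slc3a2* (minus strand) ended at position 8714147 of chromosome 19. It lay inside the GENCODE gene, which runs from 8706882 to 8723369, so that the start of that gene model was not searched. The cyclic AMP response element, searched as TGACGTCA, had no match in the 10 genes and was found in 2.03% of all genes with a window. A match is a match of letters and was not tested for binding. Positions are counted from the RefSeq start site. The window of *Chac1* up to the first base of the GENCODE gene, with its match at positions -194 to -186, and 30 bases around the matches of *Asns* (-23 to -15) and *Trib3* (14 to 22 after the start site) are given 5′ to 3′ on the strand of the gene, with the match in capitals. In *Chac1* and *Trib3* the match is read on the opposite strand.
*Chac1*, chr2:119350992-119351228, plus strand: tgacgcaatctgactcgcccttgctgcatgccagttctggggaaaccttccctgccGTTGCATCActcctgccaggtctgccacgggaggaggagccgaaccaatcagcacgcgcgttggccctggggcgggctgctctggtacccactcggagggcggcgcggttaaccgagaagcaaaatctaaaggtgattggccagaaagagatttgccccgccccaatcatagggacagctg
*Asns*, chr6:7693213-7693242, minus strand: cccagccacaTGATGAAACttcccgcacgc
*Trib3*, chr2:152344028-152344057, minus strand: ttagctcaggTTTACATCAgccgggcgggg

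Total counts ran from 14251190 to 35764874 per sample, and control sample 1 was the shallowest. The targeted gene *Ash1l* had 245 and 290 CPM (counts scaled to a library of fixed size, with TMM factors) in control samples 1 and 2 and 216 and 138 in *Ash1L* shRNA samples 1 and 2, with a log2 fold change (log2FC) of -0.60 ± 0.22 (standard error, SE). In edgeR's quasi-likelihood test, its p was 0.0362 before and 0.275 after adjustment over all genes tested. With 1 sample left out, its log2 fold change ran from -0.97 to -0.31. *Ash1l* shares 352 exon bases on the opposite strand with *Dap3*. All 8 neuron markers were detected, which shows neurons but is no check of the cortical label. Their summed CPM were 6835 and 7066 in control and 6172 and 5114 in *Ash1L* shRNA samples, and 1 of the 8 was DOWN. *Ash1L* shRNA sample 2 stood apart in the immediate early gene *Fos*, at 629.9 CPM against 27.5 to 39.3 in the other samples, and its summed microglia markers were 385 CPM against 740.1 to 939. Astrocyte markers were DOWN for 7 of 8, with summed CPM of 4642 and 4936 in control and 3757 and 2847 in *Ash1L* shRNA samples. Markers of B and plasma cells were DOWN for all 4 tested, from 13.8 and 16.9 to 1.21 and 0.531 summed CPM, those of T and NK cells for 6 of 8, and those of monocytes, macrophages and neutrophils for 3 of 7. In bulk tissue, fewer cells of a type and less RNA per cell cannot be told apart.

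Of the 10 integrated stress response genes, 4 were UP in *Ash1L* shRNA samples, *Trib3*, *Chac1*, *Atf4* and *Asns*, and 0 were DOWN. A gene was called UP or DOWN at an unadjusted p under 0.05 and a change of 1.2-fold or more in edgeR's quasi-likelihood test. These limits were taken over from the study's methods. Over all genes tested, 8.61% were UP and 8.28% DOWN. *Cebpb* and *Atf5* were higher in both *Ash1L* shRNA samples without passing that limit, and *Ddit3*, *Ddit4*, *Sesn2* and *Slc3a2* overlapped between the groups. The groups did not overlap for 6 of the 10 genes, all higher in *Ash1L* shRNA, against 26.5% of all genes higher, 26.8% lower and 53.2% in either direction. When p was adjusted (Benjamini-Hochberg, all genes tested), edgeR's quasi-likelihood test left 0 of the 10 below 0.05, beside 0.00616% of all genes, while 4 were below 0.05 unadjusted. DESeq2 and edgeR's likelihood ratio test each passed 1 of the 10 after adjustment, *Atf4* at 0.0497 and *Trib3* at 0.0115, where they passed 2.52% and 2.95% of all genes. An exact permutation test of a single gene cannot go below 0.333 with 2 samples against 2.

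**Figure D1:**
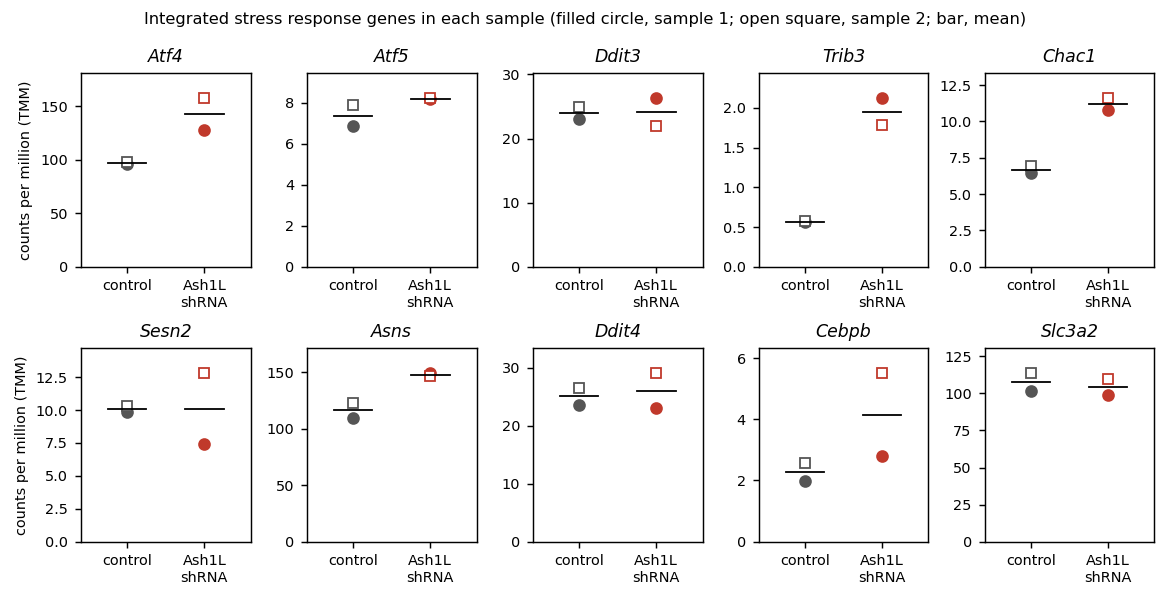
Each panel plots CPM (TMM-scaled, y axis from 0) of 1 gene in the 2 control samples (grey) and the 2 *Ash1L* shRNA samples (red), with filled circles for sample 1, open squares for sample 2 and bars for the mean. *Trib3*, *Chac1*, *Atf4* and *Asns* are separated between the groups, while *Sesn2* of the *Ash1L* shRNA samples lies on either side of both controls, at 7.41 and 12.8 CPM.

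*Atf4* encodes the central transcription factor of the response. Its level was 95.8 and 97.9 CPM in control samples 1 and 2 and 128 and 157 CPM in *Ash1L* shRNA samples 1 and 2. Both *Ash1L* shRNA samples were above both controls, and sample 2 was the higher. The means were 96.8 ± 1.5 (SD, n = 2) and 143 ± 20.9 (SD, n = 2), a 1.47-fold difference with log2FC 0.56 ± 0.14 SE. In edgeR, p was 0.00546 before and 0.253 after adjustment. *Atf4* (ENSMUSG00000042406) lies on chromosome 15 of mm10 from 80255184 to 80257541, and its call was kept with any 1 sample left out, at log2 fold changes from 0.40 to 0.70.

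*Atf5* encodes a related factor that is linked to stress of mitochondria and is itself translated under eIF2 phosphorylation. It had 6.87 and 7.87 CPM in control and 8.18 and 8.20 CPM in *Ash1L* shRNA samples. The groups were separated by less than the controls differed from each other, and log2FC was 0.15 ± 0.21 SE. *Atf5* shares 82 exon bases on the opposite strand with *Nup62*, and the strand setting of the counting is not stated.

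*Ddit3* encodes CHOP, a target of ATF4. It had 23.1 and 24.97 CPM in control samples and 26.3 and 22.0 CPM in *Ash1L* shRNA samples. The *Ash1L* shRNA samples fell on either side of the controls, with log2FC 0.00 ± 0.15 SE. *Mars* overlaps *Ddit3* on the opposite strand by 68 exon bases, and GENCODE lists a second gene model under the symbol *Ddit3* that shares 105 exon bases.

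*Cebpb* encodes C/EBPbeta, a partner of ATF4 that is also induced by inflammatory cytokines. It had 1.98 and 2.57 CPM in control and 2.81 and 5.50 CPM in *Ash1L* shRNA samples, from 28 to 114 counts. The difference was mostly that of sample 2, whose 95% counting interval (exact Poisson, counting error only) of 4.54 to 6.61 CPM lay above those of the other samples, whereas the interval of sample 1, 2.22 to 3.51, overlapped both control intervals. The log2FC was 0.84 ± 0.41 SE, with 0.346 as adjusted p in edgeR. Without *Ash1L* shRNA sample 1, *Cebpb* was UP, at a log2 fold change of 1.24, and without sample 2 the value was 0.28. In the same sample 2, *Fos* was high and microglia markers were low, and the markers of monocytes, macrophages and neutrophils summed to 49.7 CPM, against 94.6 to 125 in the other samples. The part of these in the *Cebpb* values was not tested. *Cebpb* also shares 312 exon bases with *Tmem189* on the opposite strand.

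*Trib3* encodes a pseudokinase that is induced by ATF4 and CHOP and restrains ATF4. It was the least abundant of the 10 genes, counted 8 and 20 times in control and 58 and 37 times in *Ash1L* shRNA samples 1 and 2. These counts correspond to 0.567 and 0.570 CPM against 2.12 and 1.79 CPM. The *Ash1L* shRNA samples stood above the controls also in their counting intervals, which reached up to 1.12 CPM in control sample 1 and down to 1.26 CPM in *Ash1L* shRNA sample 2. The fold difference of 3.42 was the largest of the 10 genes, with log2FC 1.77 ± 0.42 SE, and in edgeR p was 0.00499 before and 0.253 after adjustment. Its SD between controls, 0.00241 CPM (n = 2), was far smaller than the counting error of 8 and 20 counts. *Trib3* (ENSMUSG00000032715, chromosome 2 from 152337422 to 152344032) was UP with any 1 sample left out, at log2 fold changes from 1.64 to 1.89.

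*Chac1* encodes an enzyme that degrades glutathione and is a target of ATF4. It had 6.45 and 6.93 CPM in control samples and 10.8 and 11.6 CPM in *Ash1L* shRNA samples. The 2 *Ash1L* shRNA samples were close to each other and each lay above both controls. The means were 6.69 ± 0.340 (SD, n = 2) and 11.2 ± 0.572 (SD, n = 2), a 1.67-fold difference with log2FC 0.74 ± 0.19 SE. In edgeR, p was 0.00807 before and 0.253 after adjustment. Without control sample 1, the p was 0.0585 at a log2 fold change of 0.70. *Chac1* (ENSMUSG00000027313) lies on chromosome 2 from 119351229 to 119354381, and its paralog *Chac2* had a log2 fold change of 0.11.

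*Sesn2* and *Ddit4* encode inhibitors of the growth kinase complex mTORC1. *Sesn2* had 9.85 and 10.3 CPM in control and 7.41 and 12.8 CPM in *Ash1L* shRNA samples, so that sample 1 was below and sample 2 above both controls. Its log2 fold change was 0.00 with all samples (standard error 0.28), -0.44 without *Ash1L* shRNA sample 2 and 0.33 without sample 1. *Ddit4* had 23.6 and 26.5 CPM in control and 23.0 and 29.0 CPM in *Ash1L* shRNA samples, with the same order of samples and log2FC 0.05 ± 0.16 SE. The paralogs *Sesn1* and *Ddit4l* had log2 fold changes of 0.08 and -0.19, and neither was called.

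*Asns* encodes asparagine synthetase, a target of ATF4 under amino acid shortage. Its level was 110 and 122 CPM in control and 149 and 147 CPM in *Ash1L* shRNA samples. The *Ash1L* shRNA samples were nearly equal and exceeded both controls, with means of 116 ± 8.93 (SD, n = 2) and 148 ± 1.39 (SD, n = 2). The difference was 1.27-fold, the smallest of the 4 calls, with log2FC 0.35 ± 0.11 SE, and in edgeR p was 0.0210 before and 0.260 after adjustment. The call was lost with the replicate number as a block (p of 0.0513) and without control sample 1 (p of 0.146). *Asns* (ENSMUSG00000029752) lies on chromosome 6 from 7675169 to 7693254.

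*Slc3a2* encodes the heavy chain CD98, which carries several amino acid exchangers to the cell surface. It had 102 and 113 CPM in control and 98.9 and 110 CPM in *Ash1L* shRNA samples. The groups overlapped, and log2FC was -0.05 ± 0.12 SE.

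**Figure D2:**
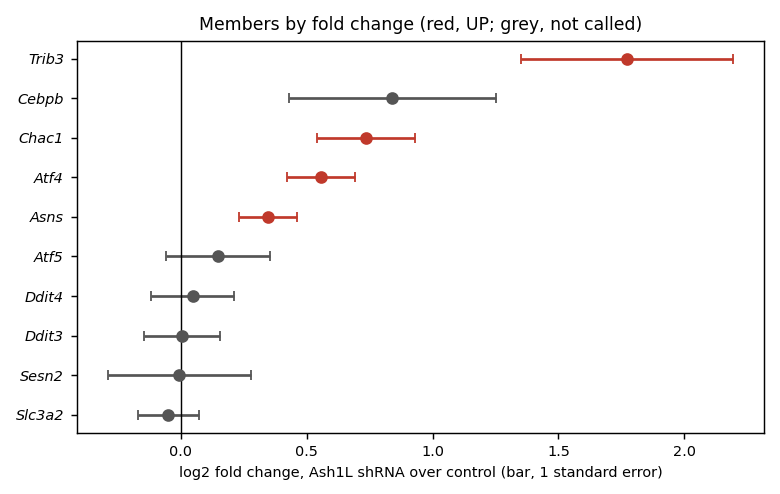
The log2 fold change of *Ash1L* shRNA over control (x axis) is plotted for each of the 10 genes, with bars of 1 standard error from edgeR's quasi-likelihood fit. The genes called UP (red) run from 0.35 in *Asns* to 1.77 in *Trib3*, while *Cebpb* at 0.84 has a bar of 0.41 and is not called.

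The order of the levels was compared per kilobase of exon (CPM divided by the union of GENCODE exons), since counts grow with gene length. In control samples, *Asns* at 42.5 ± 3.27 and *Atf4* at 41.1 ± 0.634 CPM per kb (SD, n = 2) led and did not differ beyond their spread. *Slc3a2* followed at 30.5 ± 2.33, then *Ddit4* at 14.3 ± 1.18 and *Ddit3* at 14.0 ± 0.775, a pair that again differed by less than its spread. *Chac1* at 4.09 ± 0.208 and *Atf5* at 3.70 ± 0.354 were near each other, and *Sesn2* at 2.90 ± 0.0962, *Cebpb* at 1.51 ± 0.274 and *Trib3* at 0.268 CPM per kb came last. In *Ash1L* shRNA samples, *Atf4* stood at 60.5 ± 8.87 and *Asns* at 54.0 ± 0.508 CPM per kb, and *Trib3* remained the lowest at 0.918 ± 0.111. The largest fold difference was therefore that of the gene with the lowest level.

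The median log2 fold change over the 10 genes was 0.25, beside 0.00 over all genes tested. Relative to the control mean, and with a pseudocount of 1 on normalised counts, the median over the 10 genes was 0.23 in *Ash1L* shRNA sample 1 and 0.34 in sample 2, with the controls at -0.07 and 0.07. For the 4 UP genes these medians were 0.54 and 0.75, and *Trib3* and *Asns* were the higher in sample 1, *Atf4* and *Chac1* in sample 2. The 6 other genes had medians of 0.00 and 0.19. With *Ash1L* shRNA sample 2 left out, the sample with high *Fos*, the same 4 genes were UP, and with sample 1 left out *Cebpb* was added to them. Without control sample 1, *Atf4* and *Trib3* were the 2 genes UP. The counts of all genes called UP moved at the same time, from 1397 with all samples to 856 without control sample 1 and 2368 without *Ash1L* shRNA sample 1.

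**Figure D3:**
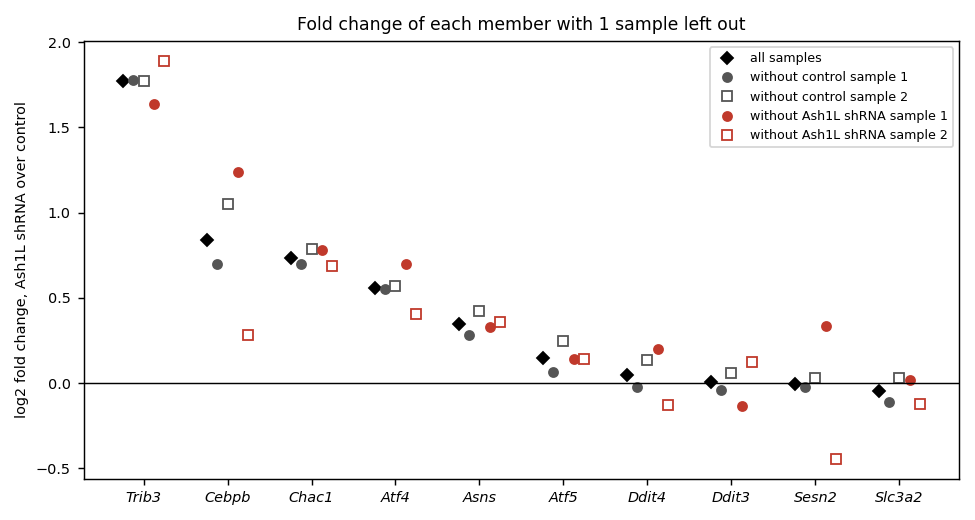
The log2 fold change of *Ash1L* shRNA over control (y axis) is plotted for each of the 10 genes (x axis) with all samples (black diamond) and with 1 sample left out, controls in grey and *Ash1L* shRNA samples in red, filled for sample 1 and open for sample 2. *Trib3*, *Chac1*, *Atf4*, *Asns*, *Cebpb* and *Atf5* stay above 0 throughout, and *Sesn2* ranges from -0.44 to 0.33.

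Upstream of *Atf4*, the list of eIF2alpha kinases, phosphatase subunits and modulators had 1 of 9 genes UP and 0 DOWN, and its median log2FC was 0.22. The gene UP was *Ppp1r15a* (GADD34), which brings a phosphatase to eIF2 and is itself a target of ATF4. It had 16.2 and 13.1 CPM in control and 21.4 and 39.4 CPM in *Ash1L* shRNA samples, higher in both and most in sample 2, with log2FC 1.06 ± 0.31 SE. None of the kinases was called with all samples and TMM factors. *Eif2ak3* (PERK), the kinase of the endoplasmic reticulum, had log2FC 0.28 ± 0.13 SE, *Eif2ak2* (PKR) 0.41 (0.20), *Eif2ak4* (GCN2) 0.15 (0.15) and *Eif2ak1* (HRI) -0.03 (0.15). The most abundant genes of the list, *Impact* and *Gcn1l1*, which act on GCN2, had log2 fold changes of 0.31 and 0.22 and were not called. The kinases were singled out after their values were seen. Here and in the lists below, numbers of calls with 1 sample left out stand beside those of all genes tested. The numbers of all genes UP and DOWN rose without *Ash1L* shRNA sample 1 and fell without any other sample. The list counts in those fits are therefore not a measure of the lists alone. *Eif2ak2* and *Eif2ak3* were UP without *Ash1L* shRNA sample 2 and under library-size scaling, and *Eif2ak1* turned positive in both. The call of *Ppp1r15a* was lost without control sample 2, where 0 of the 9 genes were UP, while 5 were UP without *Ash1L* shRNA sample 1 and 3 without sample 2.

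Of the eIF2 and eIF2B subunits, 3 of 8 were UP and 1 DOWN, with a median of 0.23. *Eif2s2*, the beta subunit of eIF2, rose from 66.2 and 60.7 to 88.6 and 105 CPM, log2FC 0.61 ± 0.13 SE. *Eif2s1*, which carries the phosphorylated serine, had 0.43 (0.15), and *Eif2b1* of the exchange factor 0.45 (0.14). *Eif2b2* fell by 0.40 on the log2 scale (standard error 0.16), and *Eif2b5*, the catalytic subunit, was at 0.21 without a call. The call of *Eif2b2* was lost in DESeq2, in the likelihood ratio test, under library-size scaling, with the replicate number as a block, and without control sample 1, control sample 2 or *Ash1L* shRNA sample 2. The call of *Eif2s1* was lost with the block and without the same 3 samples. Without control sample 1 or control sample 2, 1 of the 8 was UP, *Eif2s2*.

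Among bZIP factors that pair with the products of these genes, 2 of 11 were UP and 1 was DOWN, with a median of 0.38. *Atf3*, an early stress factor downstream of ATF4, had 1.13 and 2.42 CPM in control and 11.2 and 22.0 CPM in *Ash1L* shRNA samples. It was higher in both *Ash1L* shRNA samples, with log2FC 3.13 ± 0.47 SE, and its call was kept with any 1 sample left out. *Cebpg*, a partner of ATF4, had 49.2 and 52.4 against 64.2 and 67.8 CPM and log2FC 0.38 ± 0.11 SE, and lost its call without either control sample. *Jdp2* fell by 0.45 on the log2 scale (0.14), and the most abundant factor, *Nfe2l1*, was at -0.09. The log2 fold change of *Jdp2* ran from -0.57 to -0.34 with 1 sample left out. *Fos* was at 3.31 (standard error 1.63) through sample 2 alone, and at -0.25 without it. *Junb*, *Jun* and *Fosl2* of the same list were also far highest in sample 2, at 271, 120 and 85.4 CPM. In the other samples they reached at most 54.7, 44.4 and 39.0 CPM, and none of them was called. These genes enter the median of the list. Of the paralogs of the 10 genes, 1 of 9 was UP at a median of 0.40, *Trib1*, with 17.9 and 13.9 against 20.7 and 40.2 CPM and log2FC 0.95 ± 0.33 SE, and *Trib2* was at 0.45 without a call, with a log2 fold change of -0.03 when sample 2 was left out. Without either control sample in turn, 1 bZIP factor and 0 paralogs were UP, and without *Ash1L* shRNA sample 1 these were 6 and 3.

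Amino acid transporters changed in both directions, with 5 of 13 UP, 4 DOWN and a median of 0.29. UP were *Slc1a4*, *Slc7a1*, *Slc7a5*, *Slc38a2* and *Slc6a9*. *Slc1a4*, which carries serine and other neutral amino acids, had 84.7 and 81.3 against 117 and 149 CPM, log2FC 0.68 ± 0.15 SE. *Slc7a5*, a light chain of CD98 for large neutral amino acids, had a log2 fold change of 0.45, and the glutamine carrier *Slc38a2*, the most abundant of the list, 0.59 (0.23). DOWN were *Slc7a11*, *Slc7a10*, *Slc1a5* and *Slc7a8*. *Slc7a11*, the cystine and glutamate exchanger and a target of ATF4, had 125 and 168 against 100.3 and 74.7 CPM, log2FC -0.75 ± 0.20 SE. *Slc7a10* fell by 0.71 (0.19) and *Slc1a5* by 0.88 (0.25) on the log2 scale. *Slc7a10* and *Slc7a11* are expressed mainly in astrocytes in the brain, and the astrocyte markers given above moved in the same direction. Their part in these falls was not tested. The number of transporters UP was 1 without control sample 1 and 2 without control sample 2, and the number DOWN was 0 without control sample 2. *Slc1a5* lost its call also without control sample 1, and *Slc7a8* without *Ash1L* shRNA sample 2 and in the blocked fit. Among the UP calls, *Slc7a5* was lost without either control sample and without *Ash1L* shRNA sample 2. The call of *Slc38a2* was lost without the same 3 samples and with the block, and *Slc6a9* was not called in DESeq2, in the likelihood ratio test or with the block.

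Among amino acid and one-carbon enzymes, 2 of 13 were UP and 1 DOWN, with a median of 0.14. The 2 were the mitochondrial folate enzymes *Mthfd2*, with 7.65 and 8.04 against 20.9 and 29.1 CPM and log2FC 1.67 ± 0.21 SE, and *Aldh1l2*, with 9.07 and 10.6 against 24.6 and 20.6 CPM and log2FC 1.19 ± 0.18 SE. Both were higher in both *Ash1L* shRNA samples, by 3.17-fold and 2.29-fold, and kept their calls with any 1 sample left out. *Phgdh*, the first enzyme of serine synthesis and one enriched in astrocytes, fell by 0.49 on the log2 scale (0.17), and the next enzyme *Psat1* was at 0.14 and *Got1*, the most abundant, at -0.17, neither called. With 1 sample left out, the log2 fold change of *Phgdh* ran from -0.73 to -0.30. The astrocyte markers were lower in the same samples, and their part in the fall of *Phgdh* was not tested. Of the aminoacyl-tRNA synthetases and the tRNA exporter *Xpot*, 12 of 13 had a positive log2 fold change, 4 were UP and *Xpot* was DOWN, with a median of 0.16. *Cars* was at 0.56 (0.15), *Yars* at 0.44 (0.11), *Eprs* at 0.39 (0.11) and *Tars* at 0.31 (0.12), while the most abundant, *Nars* and *Aars*, were at 0.07 and 0.06. Without control sample 1, 4 of the enzymes and 1 of the synthetases were UP, and without control sample 2, 2 of the synthetases. The call of *Xpot* was lost with the replicate number as a block, without control sample 2 and without *Ash1L* shRNA sample 2, and that of *Tars* in DESeq2, in the likelihood ratio test and with the block.

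Further targets of ATF4 in growth, secretion and autophagy had 5 of 10 UP and 0 DOWN, with a median of 0.39. *Stc2*, a secreted glycoprotein, had 0.850 and 0.570 against 3.51 and 2.56 CPM, log2FC 2.15 ± 0.43 SE. *Nupr1*, a stress-induced nuclear protein, had 6.02 and 7.67 against 12.1 and 13.1 CPM, log2FC 0.87 ± 0.21 SE. *Eif4ebp1*, a repressor of translation, was at 0.87 (0.30), *Ero1l*, an oxidase of the endoplasmic reticulum, at 0.53 (0.12) and *Vldlr* at 0.45 (0.12). All 5 were higher in both *Ash1L* shRNA samples. The abundant autophagy genes *Sqstm1* and *Map1lc3b*, at 0.17 and 0.33, were not called. Mitochondrial stress genes had 2 of 8 UP and a median of 0.23, with *Hspd1* at 0.28 (0.11) and *Gdf15*, a secreted stress cytokine, with 0.283 and 0.257 against 1.06 and 4.34 CPM and log2FC 3.30 ± 0.82 SE, while *Hspa9* was at 0.18. The call of *Hspd1* was lost in DESeq2 and the likelihood ratio test, which left 1 of the 8 UP, with the replicate number as a block, and without control sample 1, control sample 2 or *Ash1L* shRNA sample 2. *Gdf15* was higher in both *Ash1L* shRNA samples from a level of few counts, and was not called without control sample 2, when 0 of the 8 mitochondrial genes and 3 of the 10 further ATF4 targets were UP.

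**Figure D4:**
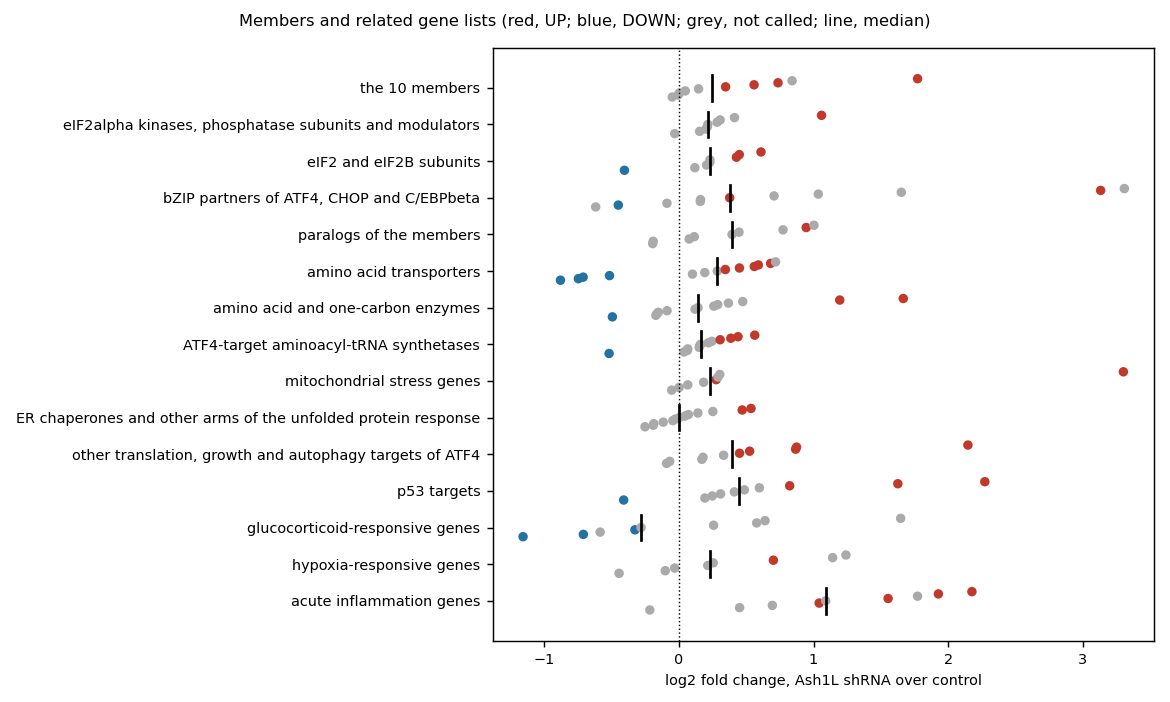
Each point is the log2 fold change of *Ash1L* shRNA over control (x axis) of 1 tested gene in the 10 members or in 1 of 14 related lists (rows), red for UP, blue for DOWN and grey for not called, with a line at the median. The median of the other ATF4 targets lies at 0.39, that of the members at 0.25 and that of the endoplasmic reticulum list at 0.00.

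The other arms of the unfolded protein response had 2 of 13 genes UP, 0 DOWN and a median of 0.00. *Hspa5* (BiP), the main chaperone of the endoplasmic reticulum, had 349.8 and 316 against 440.0 and 482 CPM, log2FC 0.47 ± 0.12 SE, and *Sdf2l1* was at 0.54 (0.16). *Hsp90b1* at 0.25 and *Calr* at 0.07, the most abundant of the list, were not called, nor were *Xbp1* and *Atf6*, the factors of the other arms, at -0.03 and 0.14, which were named after their values were seen. Without control sample 1, 1 of the 13 was UP, and without control sample 2, 0. The shares UP in these lists stand beside 8.61% of all genes tested, and 0 of the 143 genes tested in the 14 lists stayed below 0.05 when p of edgeR's quasi-likelihood test was adjusted. With DESeq2 15 of them did, 12 higher and 3 lower, and with the likelihood ratio test 14, 12 higher and 2 lower, beside the 2.52% and 2.95% of all genes given above. In DESeq2 and the likelihood ratio test, the adjusted p was 3.06e-09 and 3.3e-07 for *Atf3* and 4.24e-07 and 3.21e-07 for *Mthfd2*.

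Signals that also act on single members were followed in 4 lists. Of the p53 targets, 3 of 10 were UP and 1 DOWN, with a median of 0.45. *Cdkn1a* had 19.3 and 13.5 against 44.3 and 112 CPM, log2FC 2.27 ± 0.50 SE, *Gadd45a* was at 1.63 (0.35), *Mdm2* at 0.82 (0.28) and *Zmat3* at -0.41 (0.13), while *Plk2* and *Ccng1*, the most abundant, were at 0.25 and 0.31. Of the glucocorticoid-responsive genes, 0 of 9 were UP and 3 DOWN, with a median of -0.28, *Mt2* at -1.16 (0.14), *Mt1* at -0.71 (0.11) and *Tsc22d3* at -0.33 (0.12), and *Sgk1* and *Per1* at 0.64 and 0.26 without a call. The call of *Tsc22d3* was lost in DESeq2, in the likelihood ratio test, under library-size scaling, with the replicate number as a block, and without control sample 1, control sample 2 or *Ash1L* shRNA sample 1. *Mt1* and *Mt2*, metallothioneins, are also abundant in astrocytes, whose markers were lower as given above, and the part of these was not tested. The 9 glucocorticoid-responsive genes went both ways, with 4 positive and 5 negative log2 fold changes. Both *Ash1L* shRNA samples were above both controls for 3 of the 9 and below both for 5. DESeq2 called 2 of these 9 UP and the likelihood ratio test 3. Of the hypoxia-responsive genes, 1 of 8 was UP, *Pfkfb3* at 0.70 (0.24), the median was 0.24, and *Pdk1* and *Bnip3* were at 0.26 and -0.10. Of the acute inflammation genes, 4 of 9 were UP and the median was 1.09, with *Il1b* at 2.18 (0.63), *Ccl2* at 1.93 (0.52), *Il1rn* at 1.55 (0.48) and *Osmr* at 1.04 (0.32), and *Socs3* at 0.69 was not called. Each of these 4 was higher in both *Ash1L* shRNA samples. *Il1b* was highest in sample 2, with 0.992 and 1.28 against 2.41 and 8.20 CPM. Sample 2 had 385 summed CPM of microglia markers, whose part was not tested. *Ccl2* and *Il1rn* were each at 0.496 CPM in control sample 1, a level of few counts. With at least 10 counts required in every sample, both were filtered out and not tested, as was *Gdf15*. With control sample 1 or control sample 2 left out, 1 of the 9 was UP. Without *Ash1L* shRNA sample 1, more genes of each of these 4 lists were UP. Without control sample 2, fewer p53 targets were UP. *Pfkfb3* lost its call without either control sample and without *Ash1L* shRNA sample 2. The number of all genes UP also rose without *Ash1L* shRNA sample 1 and fell in the other fits with 1 sample left out.

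The genes whose levels over the 4 samples were most like the median of the 10 genes were *Timm10*, *Ola1*, *3110001D03Rik*, *1110059E24Rik* and *Fam175b*, with root mean square distances of 0.0127 to 0.0214 on the log2 scale. *Ola1*, for example, had 89.3 and 98.2 against 109 and 120 CPM. With 4 samples, 734 of the 12454 genes compared came within a distance of 0.1, so that likeness of this kind is common.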

How the data were processed

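The deposited values were raw counts per gene symbol. Per the study's methods, the authors used RNA STAR for alignment (mm10, paired ends) and featureCounts for counting, while the extraction notes in the labels name Cutadapt and TopHat2. Strand and multiple-mapping settings are not given in the sources used here, so that genes overlapping on opposite strands may share counts. Total counts were 14251190 to 35764874 per sample, and counting error was largest in control sample 1.

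Genes were filtered with filterByExpr, scaled by TMM and tested in edgeR 4.0.16 (R 4.3.3) with glmQLFit (robust) and glmQLFTest, *Ash1L* shRNA against control, without covariates, and p-values were adjusted by the Benjamini-Hochberg method over all 16232 genes tested. Standard errors were derived from log2FC and the F statistic (log2FC over root F), and values in parentheses after a log2 fold change are standard errors. DESeq2 1.42.0, the likelihood ratio test, other scalings and filters, the replicate block, leaving out each sample and a limit of 1.5-fold were the alternatives. The script was tested on simulated counts. Counting intervals are exact Poisson intervals at 95%. Promoters came from RefSeq tables (GRCm38.p6), and gene coordinates and exon lengths from GENCODE vM21, both of the mm10 assembly.

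The 10 genes, the 14 related lists and the 11 marker lists were chosen with earlier results of these data known. Named are the 10 genes, in each list the 2 most abundant genes and up to 4 called genes by p, and the 5 genes most like the median of the 10 with a mean normalised count of at least 100. Any other gene, such as further called genes completing a small count, was named after its values were seen. Counts of lists are over their tested genes. Samples are pools of mice per the methods. Replicates differed beyond counting error, with a chi-square per degree of freedom of 14.8 between controls and 42.3 between *Ash1L* shRNA samples. Deviations of same-numbered samples from their group means correlated at -0.105 across genes, and no source pairs them.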

Additional observations from a re-analysis of the deposited data

How the results depend on the processing

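*Trib3* and *Atf4* were UP in every fit that tested them at the 1.2-fold limit, and *Trib3* could not be tested with at least 10 counts in every sample. At the 1.5-fold limit 2 of the 10 genes were UP, *Trib3* and *Chac1*, with 765 genes UP and 491 DOWN in all. With the replicate number as a block, *Asns* was at 0.35 and lost its call, *Ddit3* was at -0.00075, and 1052 genes were UP and 1020 DOWN. The block changed no other call of the 10 genes, and the samples share only a number. With the pairing crossed, chosen after the data were seen, 4 of the 10 genes and 1541 genes in all were UP and 1736 were DOWN. DESeq2 and the likelihood ratio test each gave 1 of the 10 genes an adjusted p under 0.05. *Sesn2*, at -0.0048 with TMM factors, was at 0.012 with upper-quartile factors, 0.042 with library size only and 0.0035 with the stricter filter, under which the median of the tested genes of the 10 was 0.15 since *Trib3* was dropped. With library size only, *Eif2ak1* was at 0.0077 and *Xbp1* at 0.017.

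When 1 sample at a time was left out, the number of the 10 genes UP ran from 2 to 5, the number passing adjustment from 0 to 2, and their median from 0.17 to 0.34, while 423 to 2368 genes in all were UP and 306 to 2718 DOWN. A group left with 1 sample is assumed to vary like the other. The log2 fold changes ran from 0.68 to 0.79 for *Chac1*, 0.28 to 0.42 for *Asns*, 0.28 to 1.24 for *Cebpb*, -0.14 to 0.13 for *Ddit3*, -0.44 to 0.33 for *Sesn2*, -0.13 to 0.20 for *Ddit4*, -0.12 to 0.028 for *Slc3a2* and -0.97 to -0.31 for *Ash1l*. Signs were compared for 31 of the list genes named without a call, with *Jun*, *Junb* and *Fosl2* not among them. Of these 31, 13 changed sign. Ranges were -0.21 to 0.13 for *Eif2ak1*, -0.12 to 0.058 for *Xbp1*, -0.025 to 0.29 for *Atf6* and -0.035 to 0.18 for *Nars*. They were -0.00078 to 0.14 for *Aars*, -0.015 to 0.73 for *Ccng1*, -0.22 to 0.044 for *Bnip3* and -0.057 to 0.19 for *Calr*. The others were -0.25 to 4.25 for *Fos*, -0.032 to 0.81 for *Trib2*, -0.38 to 0.012 for *Got1*, -0.13 to 0.55 for *Plk2* and -0.55 to 0.78 for *Per1*.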
